A study of Mus musculus with 12 samples.

Results

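The immunoglobulin genes described here are all genes that the count table types as immunoglobulin constant genes (IG_C_gene) or immunoglobulin variable genes (IG_V_gene). They number 231 of the 55487 genes listed. Of these, 13 are constant genes and 218 are variable genes, namely 113 of the heavy chain, 102 of the kappa light chain and 3 of the lambda light chain. All 231 had at least 1 count over the 12 lungs, and 200 of them passed the filter on low counts and entered the tests. The 31 that did not were 22 heavy and 9 kappa variable genes, and none of them had more than 19 counts in any lung.

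RNA-Seq was performed on whole lungs of 12 mouse pups, and every pup carried the genotype miR30a -/- on the C57BL/6J strain, so room air controls and hyperoxia-exposed pups share the loss of the gene. The deletion was made by CRISPR/Cas9, and wild-type lungs were not analysed here. Hyperoxia was 95% FiO2 from postnatal day (PND) 1 to PND 5, the controls stayed in room air, and all lungs were taken at PND 21, with 3 males and 3 females in each exposure. Pups of several litters were pooled and split by sex before exposure, dams were rotated between the groups, and the right ventricle was perfused with PBS before the lung was frozen, which washes blood out of the lung to an extent not given in the sources used here.

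Each B cell assembles its antibody from a heavy and a light chain. The variable part of a light chain is built by joining 1 variable gene to a short joining segment, a heavy chain has a diversity segment between them, and the constant gene sets the class of the antibody. Naive B cells splice the same heavy chain transcript to Ighm (IgM) or Ighd (IgD) and switch to Ighg, Ighe or Igha only after activation, while plasma cells secrete antibody in bulk. The B cells of a lung reach it by the blood.

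The sequences that decide how far the members can be told apart are those of the lambda constant genes and of the most counted variable genes. The first 120 coding bases of the 4 lambda constant genes (GENCODE mouse release 21, GRCm38, all on the minus strand of chromosome 16) are printed with the bases that differ from Iglc2 at the same position in capitals.
Iglc2: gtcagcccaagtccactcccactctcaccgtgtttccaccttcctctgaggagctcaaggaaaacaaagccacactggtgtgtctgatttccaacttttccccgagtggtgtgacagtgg
Iglc3: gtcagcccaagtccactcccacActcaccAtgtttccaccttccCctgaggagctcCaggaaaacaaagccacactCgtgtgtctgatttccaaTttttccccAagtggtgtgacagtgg
Iglc1: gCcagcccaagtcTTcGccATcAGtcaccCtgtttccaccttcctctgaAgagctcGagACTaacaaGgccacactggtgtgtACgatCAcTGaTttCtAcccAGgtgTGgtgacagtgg
Iglc4: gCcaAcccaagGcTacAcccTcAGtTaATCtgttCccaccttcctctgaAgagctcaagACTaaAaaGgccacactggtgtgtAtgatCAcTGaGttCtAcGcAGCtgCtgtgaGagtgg
Iglc3 differed from Iglc2 at 7 of these 120 bases, Iglc1 at 28 and Iglc4 at 33. Over the whole coding sequence, Iglc2 (chr16:19198396-19200351) and Iglc3 (chr16:19065230-19065681) were 96.2% identical, whereas Iglc1 (chr16:19061618-19062071) and Iglc2 were 72.3% identical. How reads that fit both genes were treated is not given in the sources used here, so the split of counts between Iglc2 and Iglc3 is uncertain. Exons of Iglc2 and Iglc3 also overlap those of other annotated genes.

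Some variable genes are as close to one another, and the last 90 coding bases of 5 much counted ones show pairs that are and genes that are not. The capitals mark the codon of the conserved cysteine that closes the framework before the junction with the joining segment.
Igkv1-110: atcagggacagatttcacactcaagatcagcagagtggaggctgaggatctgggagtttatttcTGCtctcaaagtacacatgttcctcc
Igkv1-117: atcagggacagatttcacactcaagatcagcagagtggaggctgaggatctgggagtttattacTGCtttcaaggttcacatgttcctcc
Iglv1: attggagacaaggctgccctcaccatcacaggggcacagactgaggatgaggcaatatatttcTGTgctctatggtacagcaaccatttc
Iglv2: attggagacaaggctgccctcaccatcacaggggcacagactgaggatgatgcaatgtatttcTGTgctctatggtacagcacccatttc
Ighv8-8: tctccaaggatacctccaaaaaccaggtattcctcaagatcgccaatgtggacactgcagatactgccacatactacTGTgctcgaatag
Igkv1-110 (chr6:68270485-68271267, plus strand) and Igkv1-117 (chr6:68121046-68121827, plus strand) were 97.2% identical over their coding bases. Iglv1 (chr16:19085017-19085500) and Iglv2 (chr16:19260401-19260859) were 96.9% identical, and the third lambda variable gene, Iglv3 (chr16:19241207-19241690), shared 52.8% with Iglv1. Of the 218 variable genes, 138 shared at least 1 window of 75 bases with another annotated gene and 9 shared over 50% of their windows, so the values of single variable genes are uncertain where reads could be split. The mature joined chains are not in the annotation, so counts belong to germline genes and not to antibodies.

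The libraries held 8763033 to 16741694 counts on genes. A floor of 3 counts stood at 0.191 to 0.326 CPM (a gene's counts scaled to a common library size, set by the upper quartile), and it covers counting error only. Every lung also held a thin layer of reads over the 1488 receptor genes of smell and pheromone sensing, most of which are used in sensory neurons, and it served as a measure of background here. Their median density was 11.4 to 19.04 reads per kilobase of exon. Receptor genes took 0.41% of counts in room air female 5 and 0.945% in hyperoxia male 2, the shallowest library. Room air male 1 stood apart in skeletal muscle genes, which summed to 1642 CPM there and to at most 86.3 CPM in the other lungs. Mir30a and its neighbour Mir30c-2, precursors of 71 and 84 bases, had 0 counts in all 12 lungs, so the deletion could not be checked in these libraries.

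The 231 genes together took 0.0428% to 0.0528% of all counts. Reads per kilobase of exon, divided by the receptor density of the same lungs, put all 13 constant genes above the 95th percentile of the receptor genes (1.86), with a wide range between classes. Ighm, the constant gene of IgM (chr12:113418558-113422730, minus strand), reached 58.6 times the receptor density over the 12 lungs, from 27.6 to 157 times in single lungs. Igkc, the only kappa constant gene (chr6:70726435-70726966, plus strand), reached 55.7 times that density. Ighd, the constant gene of IgD (chr12:113406604-113416324, minus strand), reached 19.95 times it. These 3 genes lie far above the receptor genes, of which the highest reached 4.01.

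The constant genes used after class switching were near the top of the receptor range. Ighg2c stood at 3.73 times the receptor density, Ighg1 at 3.40, Ighg3 at 3.39 and Ighe at 3.01, all per kilobase of exon. Igha, the constant gene of the antibody of mucosal surfaces, stood at 2.32 and Ighg2b at 2.24. Each of these 6 was therefore within the span of the receptor genes, whose highest member lay above them, and switched transcripts were not separable from background reads by this measure. Among the lambda constant genes, Iglc1 stood at 13.1 times the receptor density, Iglc2 at 11.8, Iglc3 at 8.05 and Iglc4 at 4.33. Iglc4 is a short gene of 311 coding bases, and the highest of the variable pseudogenes, which are also short, stood at 4.7. Iglc4 was thus not above all short background genes.

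**Figure D1:**
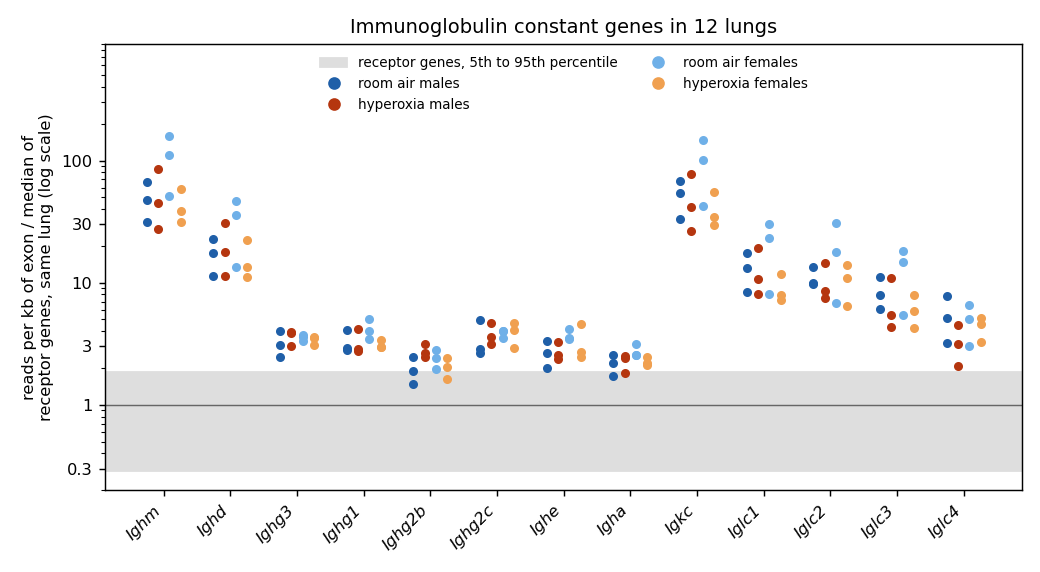
Reads per kilobase of exon of the 13 immunoglobulin constant genes, divided by the median of the receptor genes in the same lung (log scale); each point is 1 lung, coloured by group, and the grey band spans the 5th to 95th percentile of the receptor genes over the 12 lungs (0.288 to 1.86). Ighm, Ighd and Igkc lie far above the band in every lung, and the 6 switched classes lie just above it or at its edge.

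As a share of heavy chain constant counts, Ighm took 47.1% in hyperoxia male 2 (exact 95% binomial interval 44.6% to 49.6%) and 68.5% in room air female 5 (67.1% to 69.7%), with a median of 55.2% over the lungs. Ighd took 15.6% to 22.01%. The largest median share of a switched class was 5.22%, of Ighg3, and Ighg1 had 5.12%. No background was subtracted from these heavy chain shares, and the switched classes were not separable from background reads. Hyperoxia male 2 also had the highest receptor share of all lungs (0.945% of counts) and room air female 5 the lowest (0.41%). The Ighm to Ighd ratio of counts averaged 3.43 ± 0.385 (SD, n = 3) in room air females and 2.75 ± 0.159 in hyperoxia females, against 2.77 ± 0.100 and 2.55 ± 0.192 in the corresponding males. Room air females had the highest of these ratios, and their lowest lung (3.08) lay above the highest lung of any other group (2.89).

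Lambda constant genes took 33.1% (room air female 6, interval 29.1% to 37.2%) to 45.4% (hyperoxia male 2, interval 40.2% to 50.6%) of light chain constant counts. After subtraction of the receptor density the lambda share was 29.8% to 42.1%. These are shares of reads on 4 lambda genes against 1 kappa gene. Per kilobase of exon, no single lambda constant gene came near Igkc, since Iglc1 had 14.9 CPM per kilobase and Igkc 63.1.

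The genes that mark B cells were read beside these values. Cd79b and Cd79a, the signalling partners of surface immunoglobulin, stood at 15.25 and 11.5 times the receptor density per kilobase. Ms4a1 (CD20) stood at 5.603 and Pax5, the factor that keeps B cell identity, at 5.33. Of the plasma cell genes fixed for naming, Jchain, which links secreted IgM and IgA, stood at 0.998 and so at the receptor density itself, Mzb1 at 2.42 and Tnfrsf17 (BCMA) at 3.57. Of the genes of immature B cells, Rag1 stood at 1.41, Igll1 at 1.74, Vpreb1 at 2.57 and Vpreb3 at 8.27. The 14 mature B cell genes ranged from 2.40 to 15.25 times the receptor density and the 11 plasma cell genes from 0.998 to 27.04 times it. The 3 highest of the plasma cell list, Xbp1 (27.04), Sdc1 (16.7) and Txndc5 (15.2), are also used by epithelial and other secretory cells, and they were named after their values were seen.

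The variable genes had few counts each. Their mean count per lung ranged from 2.67 to 34.8, with a median of 10.8. Short genes collect more reads per kilobase, because a read is counted when it only touches the exon, so the variable pseudogenes of the same loci, which have a median exon length of 332.5 bases against 358.5 for the variable genes, are the closer comparison. The 113 heavy variable genes had a median of 10.4 counts per lung and the 81 heavy pseudogenes 8.33. The 102 kappa variable genes had a median of 11.4 counts and the 74 kappa pseudogenes 7.08. Of the 218 variable genes, 38 (17.4%) lay above the 95th percentile of all 158 variable pseudogenes (14.1 counts), and 11 lay above the highest pseudogene, Ighv8-10, at 18.3 counts.

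In every lung the mean level of the variable genes exceeded that of the pseudogenes of the same chain. The difference was 0.0792 (hyperoxia male 2) to 0.245 (room air male 4) CPM per gene in the heavy chain locus and 0.272 (hyperoxia male 3) to 0.405 (hyperoxia female 5) CPM per gene in the kappa locus. No test was made of these differences, since the genes of a locus share their libraries and often their sequence. The kappa difference was larger than the heavy chain difference in all 12 lungs.

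**Figure D2:**
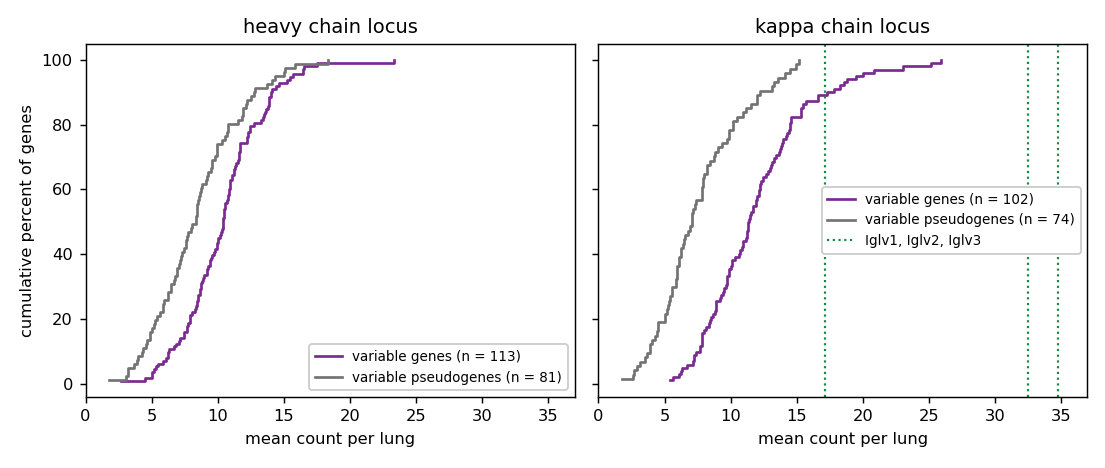
Cumulative percent of variable genes and of variable pseudogenes by their mean count per lung over 12 lungs, for the heavy chain locus (left) and the kappa chain locus (right); dotted lines in the right panel mark the 3 lambda variable genes. The kappa variable genes (median 11.4 counts) lie further to the right of their pseudogenes (median 7.08) than the heavy variable genes (10.4 against 8.33).

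The lambda variable genes Iglv3 and Iglv1 led the list. Iglv3 had 417 counts over the 12 lungs and Iglv1 390, the highest and the second highest of all variable genes, which is 6.27 and 5.72 times the receptor density per kilobase. Iglv2 had 206. In the kappa locus the highest mean levels were those of Igkv1-110 (2.07 CPM), Igkv1-117 (2.01 CPM), Igkv10-96 (1.82 CPM), Igkv1-135 (1.70 CPM) and Igkv6-32 (1.63 CPM). In the heavy locus they were those of Ighv8-8 (1.86 CPM), Ighv8-2 (1.43 CPM), Ighv1-23 (1.36 CPM), Ighv1-80 (1.34 CPM) and Ighv1-66 (1.34 CPM). The gaps between the last 3 of these are smaller than their spread over lungs.

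The counts on variable genes were spread over nearly all of them, but the pseudogenes of the same loci had a large part of such counts too (a median of 8.33 heavy and 7.08 kappa counts per pseudogene, against 10.4 and 11.4 per variable gene). How the share of any gene would look without that background was not tested. A lung had 2078 to 2958 counts on them, and 215 to 218 of the 218 genes had at least 1 count in each lung. The most counted variable gene held 1.06% (hyperoxia female 5) to 2.49% (room air female 2) of those counts, and the 10 most counted held 8.73% to 15.4%. The top 10 held 13.8% and 15.4% in room air females 2 and 5, the highest values of all lungs, and 9.71% to 12.6% in the remaining lungs other than hyperoxia female 5. With each lung thinned to 2078 counts, 202 to 212 genes had at least 3 counts against 218 genes in all.

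Hyperoxia was compared with room air for each gene in both sexes together, in females, in males, and as the sex by hyperoxia interaction, with edgeR's quasi-likelihood test and Benjamini-Hochberg adjustment over 45828 genes. A call needed both an adjusted p below 0.05 and more than a 1.5-fold change. The study asks how hyperoxia changes the lung of male and female pups without miR-30a. The labels do not tie a lung to a litter, so the p-values measure the spread between these lungs. In bulk lung, fewer cells of a type and less RNA per cell cannot be told apart.

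No immunoglobulin gene was called in any of the 4 comparisons. Over both sexes, 0 of 200 members were called, where 0.0415% of all genes tested were (1 higher and 18 lower). At an unadjusted p under 0.05, 9 members (4.5%) were lower and 3 (1.5%) higher, beside 2.52% and 2.67% of all genes. DESeq2's Wald test also called 0 members, beside 0.0873% of all genes. The smallest adjusted p of a member was 0.675 with edgeR and 0.585 with DESeq2. With 1 factor of unwanted variation removed (RUVr), 0 members were called over both sexes, beside 0.201% of all genes. The factor was estimated from the spread within the groups of these same lungs. Its removal therefore shrinks the spread that the p-values of the RUVr fit rest on. The RUVr fit called 4 members (2.0%) in females, beside 4.15% of all genes, 1 (0.5%) in males, beside 0.0349%, and 6 (3.0%) for the interaction, beside 4.59%. In females and for the interaction, the share of members called was thus below that of all genes.

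In females, 0 members were called, beside 0.00218% of all genes, and 8 (4.0%) were lower and 8 (4.0%) higher at an unadjusted p under 0.05, beside 5.28% and 7.32% of all genes. In males, 0 members and 0.0% of all genes were called, and 12 members (6.0%) were lower and 1 (0.5%) higher at that level, beside 1.8% and 0.899% of all genes. For the interaction, 0 members and 0.0% of all genes were called. There, 15 members (7.5%) had a higher and 0 a lower difference in females than in males at an unadjusted p under 0.05, beside 6.06% of all genes with a higher and 2.4% with a lower one. DESeq2 called 0 members in these comparisons too, beside 0.194% of all genes in females and 0.0% in males and for the interaction.

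Ighm was the most counted member. Its level was 93.1, 142.5 and 111.5 CPM in the room air males and 134.9, 79.9 and 104.2 CPM in the hyperoxia males. In the room air females it was 187.3, 215.0 and 121.7 CPM, and in the hyperoxia females 124.7, 98.9 and 87.1 CPM. Room air females 2 and 5 lay above all other lungs, while room air female 6 lay within the range of the hyperoxia-exposed females, so the groups overlapped in both sexes. The log2 fold change of Ighm was -0.44 (SE 0.175, adjusted p = 0.927) over both sexes, -0.75 (SE 0.248, adjusted p = 0.339) in females and -0.12 (SE 0.247, adjusted p = 0.9998) in males. The difference between the sexes was -0.63 (SE 0.349, adjusted p = 0.578), and it ranged from -0.847 to 0.02 over the 20 fits run. With RUVr, Ighm was called lower in females at -0.73 (SE 0.074, edgeR adjusted p = 1.53e-10) and was called for the interaction at -0.60 (SE 0.105, adjusted p = 8.41e-05). Over both sexes its value there was -0.43 (adjusted p = 7.38e-08), under the 1.5-fold limit. Over all fits run, the adjusted p of Ighm ranged up to 0.914 in females and 1.0 for the interaction, and RUVr was the only fit of 22 and of 20 that called it.

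Igkc had the same 3 highest lungs as Ighm. It was at 27.8, 41.3 and 35.7 CPM in room air males and at 34.4, 21.7 and 27.5 CPM in hyperoxia males. It was at 48.1, 56.4 and 28.4 CPM in room air females and at 33.6, 24.8 and 23.6 CPM in hyperoxia females. Room air females 2 and 5 were again the highest lungs, and room air female 6 was within the range of the exposed. Its log2 fold change over both sexes, -0.51 (SE 0.149, unadjusted p = 0.00192, adjusted p = 0.675), had the smallest p of all members. It was -0.70 (SE 0.210, adjusted p = 0.324) in females and -0.32 (SE 0.211, adjusted p = 0.9998) in males. Without room air female 6, Igkc was called lower over both sexes (log2 fold change -0.63, adjusted p = 0.0476) and in females (-0.94, adjusted p = 0.0318). With RUVr it was called lower in females at -0.66 (SE 0.092, edgeR adjusted p = 2.96e-07), and over both sexes it stood at -0.50 (adjusted p = 2.57e-07), under the 1.5-fold limit. It was called in 3 of 22 fits in females and in 1 of 21 over both sexes, with adjusted p of up to 0.982 and 1.0 in the others.

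Ighd lay at 34.1, 49.5 and 41.4 CPM in room air males and at 48.8, 33.3 and 42.0 CPM in hyperoxia males. It lay at 60.9, 63.9 and 31.7 CPM in room air females and at 48.5, 34.2 and 31.3 CPM in hyperoxia females. The 2 exposures overlapped in each sex. Its log2 fold change was -0.23 (SE 0.155, adjusted p = 0.927) over both sexes and -0.46 (SE 0.220, adjusted p = 0.393) in females. In males it was -0.007 (SE 0.220). Between fits, the value of Ighd over both sexes ranged from -0.362 to -0.023 and that in females from -0.72 to 0.081. With RUVr its edgeR adjusted p in females was 0.00156, and Ighd was not called in any fit.

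The lambda constant genes had values below 0 as well over both sexes, but Iglc4 differed in sign between them. The pooled log2 fold change was -0.42 (SE 0.173) for Iglc1, -0.28 (SE 0.173) for Iglc2, -0.51 (SE 0.197) for Iglc3 and -0.25 (SE 0.264) for Iglc4, each with an adjusted p of 0.927 to 0.931. In females Iglc1 had -0.60, Iglc2 -0.23, Iglc3 -0.53 and Iglc4 0.37 (SE 0.368), and in males they had -0.24, -0.32, -0.49 and -0.88 (SE 0.377). Between fits, Iglc1 in females ranged from -0.875 to -0.088 and Iglc3 from -0.777 to -0.104. With RUVr the edgeR adjusted p of Iglc1 was 0.0229 in females and 0.0409 over both sexes. That of Iglc3 was 0.0482 over both sexes, and neither gene was called in any fit. The difference between the sexes for Iglc4 was 1.25 (SE 0.528, edgeR adjusted p = 0.578). Iglc3 was at 4.30, 5.73 and 4.49 CPM in room air males and at 4.13, 3.80 and 2.43 CPM in hyperoxia males, which did not overlap. Iglc2 and Iglc4 did not overlap between exposures in males either, and all 4 overlapped in females. Of the 200 members, 23 (11.5%) had all 3 hyperoxia males below all 3 room air males, beside 3.89% of all genes, and 1 (0.5%) had them above, beside 2.74%. Summed over Iglc1 to Iglc4, the level was 21.4 to 26.9 CPM in room air males and 15.8 to 20.05 CPM in hyperoxia males, and 14.0 to 30.7 CPM in room air females and 16.1 to 21.8 CPM in hyperoxia females.

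All 7 of Ighm, Ighd, Igkc and Iglc1 to Iglc4 had a log2 fold change below 0 over both sexes, with a median of -0.42, where the median of all genes tested was 0.03. The 6 switched classes had a median of 0.15, and 5 of the 6 were above 0. These were Ighg2b at 0.29 (SE 0.161), Ighg2c at 0.25 (SE 0.197), Ighg3 at 0.23 (SE 0.136), Ighe at 0.07 (SE 0.163) and Igha at 0.06 (SE 0.150), and Ighg1 stood at -0.05 (SE 0.131). Their adjusted p was 0.927 to 0.969. The values above 0 came mainly from females, where 6 of 6 were above 0 with a median of 0.26 and none called, and in males 4 of 6 were below 0 with a median of -0.04. With the receptor share in the fit, Ighg2c was at 0.05, Ighe at 0.01 and Igha at -0.05 over both sexes. Between all fits run, Ighg2b ranged from 0.058 to 0.481 and Ighg3 from 0.125 to 0.354 over both sexes, so both stayed above 0. Ighg1 ranged from -0.137 to 0.024. Summed, the switched classes were at 41.1 to 53.3 CPM in room air males, 38.04 to 56.5 CPM in hyperoxia males, 35.2 to 50.3 CPM in room air females and 47.9 to 52.1 CPM in hyperoxia females.

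**Figure D3:**
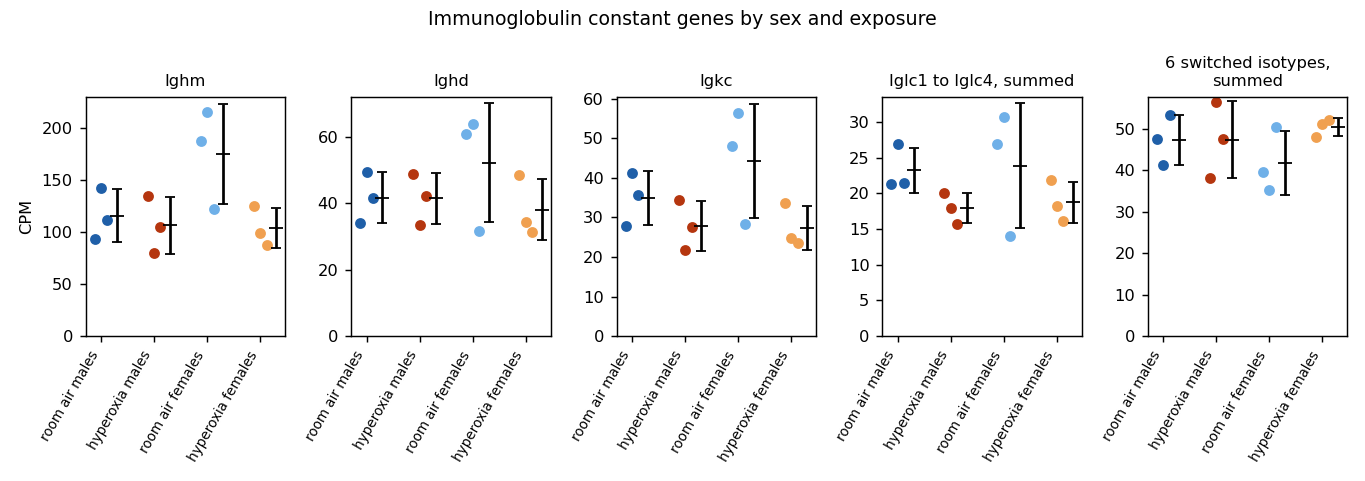
CPM of Ighm, Ighd, Igkc, the summed lambda constant genes and the summed switched classes in each lung (points, 3 per group), with the mean and SD of the group beside them. Room air females 2 and 5 are the 2 highest lungs for Ighm, Ighd, Igkc and the lambda sum, and they are among the 3 lowest for the switched classes.

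The layer of reads over receptor genes differed between the same lungs, and its values are given beside these levels. Per kilobase of exon and in CPM it was 0.891, 0.724 and 1.25 in room air females and 1.14, 1.35 and 1.48 in hyperoxia females. In males it was 1.58, 1.14 and 1.25 in room air and 0.837, 1.54 and 1.23 after hyperoxia. Room air females 2 and 5 and hyperoxia male 1, the 3 lungs with the lowest receptor density, were among the 4 lungs with the highest Ighm. The 10 genes of lung epithelium and endothelium, such as the surfactant genes, summed to 14880 and 21480 CPM in room air females 2 and 5, to 14420 CPM in hyperoxia male 1 and to 7810 to 14070 CPM in the other lungs. With the log2 receptor share of each lung as a covariate, the log2 fold change of Ighm was -0.24 over both sexes and -0.23 in females (adjusted p = 0.873), and that of Ighd in females turned to 0.08. That of Igkc was -0.30 over both sexes, with an adjusted p of 0.039 that did not reach the fold change of 1.5, and -0.14 in females (adjusted p = 0.982).

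Summed over all 231 members, the level was 468.6, 497.7 and 482.8 CPM in room air males and 432.0, 436.4 and 430.5 CPM in hyperoxia males. In room air females it was 547.3, 561.0 and 453.4 CPM and in hyperoxia females 467.5, 431.9 and 453.8 CPM. The male groups did not overlap in this sum, and the female groups did. None of the parts of the sum kept the male groups apart. In males the heavy chain constant genes were at 174.5 to 233.1 CPM in room air and 169.7 to 221.7 CPM after hyperoxia. The light chain constant genes were at 49.2 to 68.2 and 39.7 to 54.4 CPM there, and the variable genes at 196.4 to 244.9 and 155.8 to 227.0 CPM. The log2 ratio of hyperoxia to room air, averaged over sexes, was -0.18. It was -0.28 for the heavy chain constant genes, -0.455 for the light chain constant genes and 0.007 for the variable genes. For these parts in the same order, the ratios were -0.069, -0.346 and -0.197 in males and -0.484, -0.565 and 0.211 in females. Sums over members were not tested, because the members were chosen with results of these data known.

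The variable genes had medians on opposite sides of 0 in the 2 sexes, and the interaction called 0 of them. In females, 70 of 91 heavy and 60 of 93 kappa variable genes tested had a log2 fold change above 0, with medians of 0.33 and 0.18 beside 0.11 for all genes, of which 60.8% lay above 0. In males, 36 of 91 heavy and 27 of 93 kappa variable genes were above 0, with medians of -0.29 and -0.22 beside -0.01 for all genes, of which 48.0% lay above 0. The summed variable gene level was 160.0 to 207.3 CPM in room air females and 190.9 to 243.6 CPM in hyperoxia females, and 196.4 to 244.9 CPM in room air males and 155.8 to 227.0 CPM in hyperoxia males. The heavy variable pseudogenes averaged 0.46 to 0.78 CPM per gene in room air females and 0.68 to 0.86 CPM in hyperoxia females. The kappa pseudogenes averaged 0.40 to 0.65 and 0.57 to 0.79 CPM there. In males the heavy pseudogenes averaged 0.58 to 0.83 CPM in room air and 0.53 to 0.89 CPM after hyperoxia, and the kappa pseudogenes 0.57 to 0.82 and 0.45 to 0.73 CPM. Fold changes of pseudogenes were not tested. The receptor density given above was also higher in the exposed females on average, and its part in these medians was not tested apart from the covariate. In the fit with receptor share as covariate, the median log2 fold change over the 200 members was -0.06 in females, -0.17 in males and 0.05 for the interaction, whereas without it these medians were 0.25, -0.22 and 0.38.

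**Figure D4:**
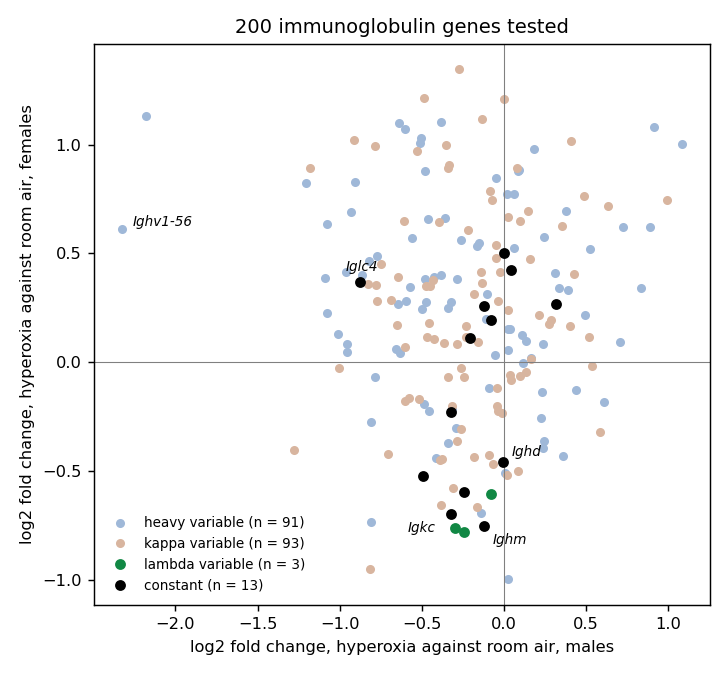
Log2 fold change of hyperoxia against room air in males (horizontal) and in females (vertical) for the 200 members tested, coloured by kind. Of the heavy and kappa variable genes, 130 of 184 lie above 0 on the female axis (60.8% of all genes do) and 121 left of 0 on the male axis, while Ighm, Igkc and the 3 lambda variable genes (green) lie below 0 on the female axis. No point was called.

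The lambda variable genes had values near those of the light chain constant genes. Over both sexes, Iglv3 had a log2 fold change of -0.53 (SE 0.214), Iglv1 of -0.51 (SE 0.237) and Iglv2 of -0.34 (SE 0.306), with adjusted p of 0.927 for each. In females, Iglv3 was at 3.58, 3.24 and 2.44 CPM in room air and at 2.36, 1.38 and 1.72 CPM after hyperoxia, with no overlap. Iglv1 was at 4.597, 2.986 and 2.996 CPM in room air females and at 2.53, 2.26 and 1.37 CPM in hyperoxia females, also with no overlap. Of the 200 members, 6 (3.0%) had all 3 hyperoxia females below all 3 room air females, beside 6.43% of all genes, and 24 had them above, beside 10.8%. In males both genes overlapped between exposures. The most counted kappa genes were closer to 0, with -0.16 (SE 0.220) for Igkv1-110 and -0.27 (SE 0.231) for Igkv1-117, and the most counted heavy gene, Ighv8-8, had -0.36 (SE 0.233). Between fits over both sexes, Iglv2 ranged from -0.918 to -0.165, Igkv1-117 from -0.376 to -0.112 and Ighv8-8 from -0.601 to -0.251. Iglv3 ranged from -0.664 to -0.4 and Iglv1 from -0.629 to -0.386.

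The 5 members with the highest and the 5 with the lowest fold change were variable genes with few counts. Ighv3-3 had 1.05 (SE 0.365, adjusted p = 0.912), Ighv1-77 1.00 (SE 0.395), Igkv12-38 0.87 (SE 0.402), Ighv1-62-1 0.76 (SE 0.424) and Igkv4-90 0.71 (SE 0.351) on the log2 scale over both sexes. Igkv4-72 had -0.89 (SE 0.307, adjusted p = 0.912), Ighv1-56 -0.86 (SE 0.382), Igkv12-44 -0.84 (SE 0.325), Ighv5-6 -0.77 (SE 0.417) and Igkv4-71 -0.56 (SE 0.332). The adjusted p of the 8 not given was 0.927. Several of these values moved by over 1.5 times between fits. With the replicate block Ighv1-56 was at -0.08, Igkv12-44 at -0.33 and Ighv1-62-1 at 0.22, and without hyperoxia male 1 Ighv5-6 was at -0.51. Without hyperoxia female 5 Igkv12-38 was at 0.57. After background subtraction Igkv4-72 was at -1.60, Ighv1-56 at -1.42, Igkv12-44 at -1.53 and Ighv5-6 at -1.46. Ighv3-3 was at 0.58, 0.87 and 0.40 CPM in room air males and 0.81, 2.06 and 1.18 CPM in hyperoxia males. It was at 0.34, 0.89 and 0.39 CPM in room air females and 1.31, 0.98 and 1.03 CPM in hyperoxia females, a group that did not overlap with its controls. These levels rest on 5 to 19 counts per lung. Ighv1-56 was at 0.911, 1.48 and 2.64 CPM in room air males and at 0.516, 0.217 and 0.221 CPM in hyperoxia males, which did not overlap, with a log2 fold change of -2.33 (SE 0.552, adjusted p = 0.9998) there. These hyperoxia levels rest on 7, 2 and 3 counts, the last 2 at or under the floor of 3 counts, so the size of the fold is poorly set. In females its value was 0.61 (SE 0.513), and the difference between the sexes was 2.94 (SE 0.759, adjusted p = 0.578). With RUVr Ighv1-56 was called lower in males (-2.35, edgeR adjusted p = 0.0371) and called for the interaction (2.96, adjusted p = 0.00407), and in the other fits its adjusted p ranged up to 1.0 with no call. Over all fits its log2 fold change in males ranged from -3.87 to -1.83 and the interaction from 2.44 to 4.92.

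The genes that bind, carry or attract what B cells make were described from lists chosen with earlier results of these data known. Of 14 genes of mature B cells, 13 had a log2 fold change below 0 over both sexes, 0 were called and 8 were lower at an unadjusted p under 0.05, with a median of -0.23. Over all genes, 2.52% were lower at that level and 56.0% lay above 0. Ms4a1 had -0.35 (SE 0.126), Cd79b -0.24 (SE 0.115), Cd79a -0.14 (SE 0.139) and Pax5 -0.12 (SE 0.120). In females their values were -0.56, -0.50, -0.42 and -0.33, and in males -0.14, 0.02, 0.145 and 0.10. The summed level of the list was 467.1 and 484.1 CPM in room air females 2 and 5 and 316.5 to 390.2 CPM in the other 10 lungs, so the same 2 lungs were highest as for Ighm.

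Plasma cell genes lay around 0, with 6 of 11 below it and a median of -0.04. Jchain had 0.15 (SE 0.207), Mzb1 -0.12 (SE 0.224) and Tnfrsf17 0.09 (SE 0.206). Of 7 genes of B cell precursors, 5 were above 0, with Rag1 at 0.17 (SE 0.160), Vpreb1 at 0.15 (SE 0.211), Igll1 at -0.09 (SE 0.191) and Vpreb3 at -0.38 (SE 0.164). The 6 genes of the germinal centre and class switching had a median of -0.03. None of these genes was called.

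Of 13 immunoglobulin receptors and transporters, 8 were below 0, with a median of -0.12 and 0 called. At an unadjusted p under 0.05, 3 of the 13 were lower, beside 2.52% of all genes, and none was higher. These were Fcer1g, the signalling chain shared by Fc receptors, at -0.38 (SE 0.114, edgeR adjusted p = 0.718), Fcgr4, an activating IgG receptor, at -0.37 (SE 0.155, adjusted p = 0.927), and Fcmr. In females the median was -0.18, and in males -0.09. Pigr, which carries IgA and IgM across epithelium, had -0.09 (SE 0.146). Fcgrt, the neonatal receptor that carries and protects IgG, had 0.005 (SE 0.108), and Fcmr, the receptor for IgM on lymphocytes, had -0.27 (SE 0.108). Of 13 genes of B cell attraction and survival, 9 were below 0, with a median of -0.085 and 0 called. The 12 T cell genes had a median of 0.04, the 8 thymus genes 0.07, the 6 neutrophil genes -0.04 and the 5 lymph node genes tested 0.05, again with 0 called. In females these medians were 0.12, 0.31, -0.205 and 0.43, and in males -0.06, -0.11, 0.065 and -0.12. The 6 skeletal muscle genes had a median of -1.24 with 0 called, and room air male 1 alone was high in them.

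Of 7 red cell genes, 4 were called lower over both sexes, beside 0.0415% of all genes, and 0 were called in females or in males alone. Their median was -1.22 over both sexes, -1.38 in females and -1.01 in males, and 7 of 7 were lower at an unadjusted p under 0.05 in each sex, beside 5.28% and 1.8% of all genes. The called ones include Alas2 at -1.11 (SE 0.193, adjusted p = 0.0129), Hbb-bt at -1.28 (SE 0.232, adjusted p = 0.0205) and Hba-a2 at -1.24 (SE 0.230, adjusted p = 0.0233). The summed level of the 7 was 5256 to 8162 CPM in room air and 1305 to 4805 CPM after hyperoxia. Their part in the values of the immunoglobulin genes was not tested. The 10 genes of lung epithelium and endothelium had a median of -0.21 over both sexes, with 10 of 10 below 0. In females their median was -0.56 (10 of 10 below 0, 4 lower at an unadjusted p under 0.05, beside 5.28% of all genes), against -0.37 for the mature B cell genes there. In males it was 0.11, and 0 of the 10 were called in any of these comparisons.

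**Figure D5:**
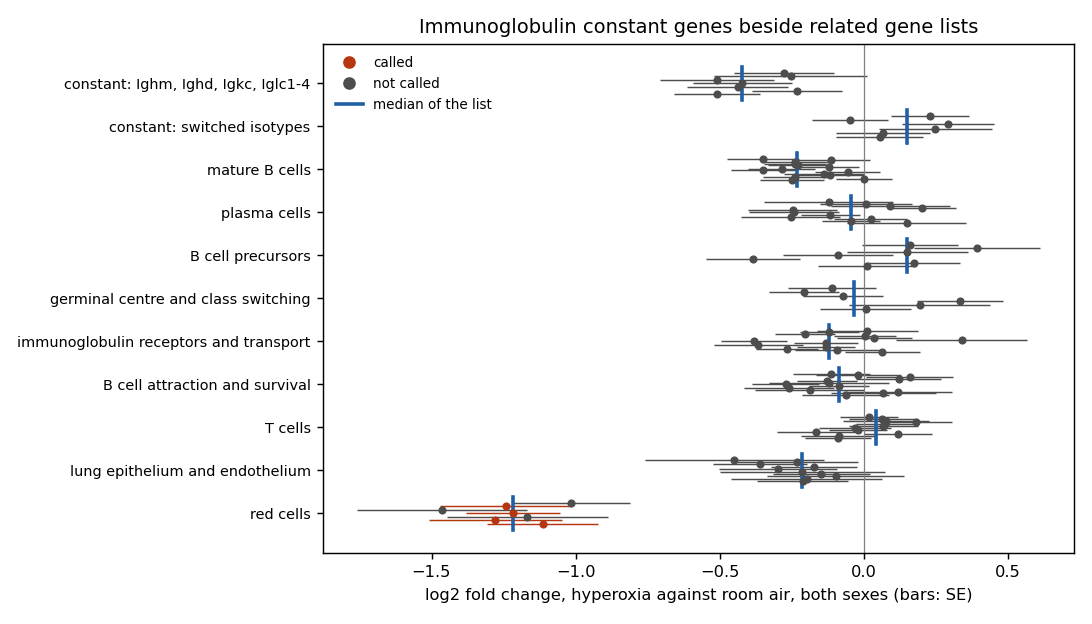
Log2 fold change of hyperoxia against room air over both sexes for the constant genes and for the genes of 9 lists (points, with SE as bars; blue lines are medians of the lists, red points were called). Ighm, Ighd, Igkc and the lambda constant genes have a median of -0.42 and mature B cell genes of -0.23, the switched classes of 0.15 and plasma cell genes of -0.04, and the only called genes are 4 red cell genes.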

How the data were processed

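RNA-Seq libraries (rRNA-depleted, per the labels) of 12 lungs were read as one table. The authors trimmed reads with Trim Galore, mapped them with STAR to mm10 (GRCm38), counted reads per gene with featureCounts and deposited raw counts, 1 column per lung. Tool versions, annotation release, strand setting and the treatment of reads that map to several genes are not given in the sources used here. The sources name 2 different library kits, and no molecular identifiers are described. ComBat-seq, which the authors applied for batches, was left out here. How many factors their RUVr normalization used is not given in the sources used here, so upper-quartile normalization alone was the basis and RUVr an alternative. Gene types came from the table, and coordinates and sequences from GENCODE mouse release 21, which held all 231 members and 55141 of the 55487 genes.

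Counts were tested with edgeR 4.0.16 in R 4.3.3 (upper-quartile normalization, filterByExpr, robust quasi-likelihood fit of 4 groups of 3 lungs, Benjamini-Hochberg adjustment over 45828 genes). Alternatives were TMM, DESeq2 1.42.0 (Wald test), RUVr with 1 factor, other filters on low counts, the receptor share as a covariate, subtraction of the receptor density, a replicate block, single-sex fits and leaving out each lung. The pseudogene comparison and the removal of 2 lungs together were chosen after seeing the data. Tables and plots were made in Python 3.11.15 with pandas 2.3.3, numpy 2.4.6, scipy 1.17.1, matplotlib 3.10.9 and Biopython 1.88. The main fit was tested on simulated data with known changes. It found 96 of 100 2-fold changes over both sexes, 53 in females and 64 in males. Of 100 4-fold changes it found 100, 99 and 98 in the same order, with 13, 2 and 10 false calls. The changed genes had higher mean counts than most variable genes have, so smaller or less counted changes can be missed. Total counts were 8763033 to 16741694 per lung, and no 2 lungs of a group agreed within sampling noise. The labels give 3 animal numbers to both exposures, but deviations of same-numbered lungs correlated at -0.372, 0.0979 and -0.216, so the numbers were not taken as pairs.

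The members and the gene lists were chosen with earlier results of these data known. Genes were named by a rule: all constant genes, the 5 variable genes with the highest mean CPM per locus, any called member, the 5 highest and 5 lowest fold changes over both sexes, and, of the other lists, called genes and a fixed set of B cell, plasma cell and receptor genes. Fcer1g, Fcgr4, Xbp1, Sdc1 and Txndc5 are outside this rule and were named for their values. Promoters, recombination signals and proteins of the members were not analysed here. Single values of 3 genes of these lists are not reported here.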

Additional observations from a re-analysis of the deposited data

How the results depend on the processing

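The number of members called over both sexes stayed at 0 with every alternative except without room air female 6, where it was 1 (Igkc). Leaving out single lungs gave 0 to 1 called members over both sexes and in females, and 0 in males and for the interaction. RUVr with 1 factor called 4 members in females, 1 in males and 6 for the interaction. With animal number as a replicate block, 1 member was called in females (Igkc, log2 fold change -0.85), but same-numbered lungs did not deviate together, so they share only a number. Over all genes and both sexes, 40 were called with DESeq2, 92 with RUVr, 10 after background subtraction and 2 with the replicate block, against 19. In females the single call became 89 with DESeq2, 1900 with RUVr, 80 with the 6 female lungs alone, 22 with the receptor share as a covariate, 8 with no filter, 451 with the replicate block and 206 without room air female 6, whereas it became 0 with TMM and with background subtraction and stayed at 1 with the filter of 10 counts in every lung. In males 0 became 16 with RUVr, 6 with the covariate and 2 with the 6 male lungs alone, and for the interaction 2102 with RUVr. Leaving out single lungs gave 3 to 37 called genes over both sexes and 0 to 206 in females. The causes were not tested.

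The log2 ratio of total immunoglobulin CPM was -0.277 after background subtraction and -0.196 without room air male 1 and hyperoxia male 2. Leaving out single lungs gave -0.228 to -0.154 for the total, -0.359 to -0.213 for heavy chain constant genes, -0.58 to -0.348 for light chain constant genes and -0.062 to 0.072 for variable genes.

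Values that were close to 0 or had a wide error changed sign in some fits. Over both sexes, Igha was -0.054 with the receptor share as a covariate, -0.043 without room air female 5 and -0.014 without hyperoxia male 3. Ighe was -0.027 and Ighg1 0.015 without hyperoxia female 2, and Ighg1 was 0.024 without room air male 5. With the replicate block Iglc4 was 0.173 and Igkv1-110 0.033. In females, Ighd was 0.081 and Iglc2 0.233 with the covariate, and Iglc2 was 0.112 without room air female 5. In males, Ighm was 0.067 and Ighd 0.144 without room air male 4, Ighm was 0.056 and Ighd 0.133 without hyperoxia male 2, and Ighd was 0.014 with DESeq2 and 0.004 with no filter. Over all single lungs left out, the highest Igha value was 0.142, the highest Ighe value 0.154 and the lowest Ighg1 value -0.129 over both sexes, the lowest Iglc2 value in females was -0.525, and the lowest Ighm and Ighd values in males were -0.324 and -0.137. The causes were not tested. With a median of 10.8 counts per lung, single variable genes are limited by depth.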
